A study of Mus musculus with 30 samples.

Results

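The genes described here are 42 named genes that serve the endoplasmic reticulum (ER) of a secreting cell: lumenal chaperones and their cofactors, disulfide-forming enzymes, collagen folding factors, ER-associated degradation genes, stress sensors and transcription factors, translocation genes, and COPII and KDEL-retrieval genes. They are set by name, with no threshold on a measured value, in a list made with earlier results of these data known. A row was found for 41 of the 42 in all 30 tables, out of 25520 gene symbols in the untreated tables and 25410 in the hormone tables. The expression of Mia3, a collagen cargo receptor, was not analysed here, and it enters with its promoter alone. All samples were IDG-SW3 cells, a clonal mouse bone cell line made from long bones of mice that carry a Dmp1 promoter-driven GFP and a temperature-sensitive, interferon-inducible large T antigen. The cells were expanded with IFN-γ and then differentiated from osteoblast-like towards osteocyte-like cells in ascorbic acid and β-glycerol phosphate, at a higher temperature and without IFN-γ, so the day of differentiation and the time since expansion ended cannot be told apart. In the hormone experiment, cells received 100 nM 1,25(OH)2D3, the active form of vitamin D, for the last 24 h before RNA was taken at day 35 or day 3, against ethanol vehicle at day 35 or day 3. In the other experiment, cells with no treatment were taken on day 3 and then on days 7, 14, 21, 28 and 35. Each of the 10 groups had 3 libraries, which the labels call biological triplicates.

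Proteins bound for secretion enter the ER through the Sec61 channel, lose their signal peptide, fold with the help of chaperones such as BiP (the product of Hspa5), form disulfide bonds, and leave in COPII-coated vesicles. Chains that fail to fold are extracted and degraded, and a build-up of unfolded protein activates the sensors IRE1 (Ern1), ATF6 and PERK, which raise the expression of chaperones and degradation genes in the unfolded protein response. Osteoblasts secrete large amounts of type I collagen, whose folding needs dedicated factors such as HSP47 (Serpinh1), and OASIS (Creb3l1), a membrane-bound transcription factor, is needed for normal collagen expression in mouse bone.

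The 18 untreated tables hold RPKM and the 12 hormone tables hold whole numbers, taken as raw counts, 22062866 to 54325515 in sum per library. The 2 experiments used different library kits, so changes are set side by side here and levels are not. The ribosomal RNA rows Rn18s, Rnr1 and Rnr2, together with LOC236598, a row of like abundance counted with them, took 72.6% to 88.9% of the RPKM sum of each untreated library, so each library was scaled by its median ratio to the others and is given as scaled RPKM. Hormone values are CPM, counts scaled to a common library total after normalisation. Symbols on more than 1 row often had low counts. This was measured among genes at 10 RPKM or more, as listed, on untreated day 3, with CPM per kilobase from raw library totals. In vehicle cells at day 3, 50.0% of the 284 such genes with more than 1 row had under 1 CPM per kilobase. Of the 1554 such genes with 1 row, 1.5% did. Of the 6 members on more than 1 row (Hspa5, Canx, Serpinh1, Fkbp10, Sel1l and Syvn1), Canx and Fkbp10 had a count of 0 in all 12 hormone libraries. Serpinh1 had 2.12 CPM per kilobase in vehicle cells at day 3, where untreated cells had 143 scaled RPKM. Hspa5 had 56.9 CPM per kilobase at 117 scaled RPKM. The median of the genes above with 1 row was 37.3 CPM per kilobase, but from raw totals and over all levels from 10 RPKM up. Whether Hspa5, Sel1l and Syvn1 lost reads was not tested. The osteoblast and osteocyte markers, summed over 10 genes, lay at 878 to 1056 scaled RPKM on untreated day 35 against 106 to 153 on day 3. The macrophage and osteoclast markers, summed over 8 genes, lay at 111 to 134 scaled RPKM on untreated day 35 against 22.2 to 23.5 on day 3, and at 590.0 to 750.4 CPM in vehicle cells at day 35 against 153 to 195 at day 3. Most of that sum was the protease gene Ctsk, which averaged 122 scaled RPKM on untreated day 35 and 21.7 on day 3. Lyz2, the lysozyme gene of myeloid cells, averaged 27.5 CPM in vehicle cells at day 35 and 3.68 at day 3. The macrophage receptor gene Csf1r averaged 0.465 and 0.167 CPM there, whereas Cd68 of the same list was lower at day 35, 0.351 against 1.06 CPM. On untreated day 35, Lyz2, Csf1r, Emr1 and Itgam were at 0 in all libraries. Cd68 averaged 0.336 scaled RPKM on that day, against 0.351 on day 3. The endothelial markers, summed over 6 genes, lay at 1.37 to 2.99 CPM in vehicle cells at day 35 against 2.25 to 5.48 at day 3. Ptprc, Itgam, Pecam1 and Emcn, each on more than 1 row, had a count of 0 in all 12 hormone libraries, as Canx had, so those counts of 0 say nothing of leukocytes or endothelial cells. The chondrocyte markers, summed over 5 genes, lay at 12.2 to 21.9 scaled RPKM on untreated day 35 against 2.2 to 2.55 on day 3, and at 267 to 388 CPM in vehicle cells at day 35 against 23.9 to 33.7 at day 3. The part of these markers in the day 35 results was not tested. Since these are bulk samples, a change in the RNA of each cell and a change in the share of cells that express a gene cannot be told apart.

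The promoters of the members were searched for 3 DNA elements of the unfolded protein response. These letters are a known link between its sensors and the chaperone genes. Other elements of the response, those of PERK among them, were not looked for. The ER stress response element (ERSE, CCAAT and CCACG with any 9 bases between them), the element ERSE-II (ATTGG and CCACG with any 1 base between them) and the core of the UPR element (UPRE, TGACGTG) were looked for on both strands, from 250 bases before to 50 bases after the annotated start in the RefSeq annotation of GRCm38.p6. Windows were matched for 34 members. An ERSE stood in 9 of them (26.5%), against 37 of 27025 genes with a window (0.137%); an ERSE-II stood in 2 (5.88%, against 0.0444% of genes) and a UPRE core in 5 (14.7%, against 2.22%). The members were chosen by name from pathways that these elements are known to serve, so these shares do not test the list. A match is a description of letters, not a site in use, and where there was none, it says only that these letters were not in this window. The ERSE matches of the chaperone and degradation genes follow, read 5′ to 3′ on the strand that carries the motif, with its fixed bases in capitals.
Hspa5: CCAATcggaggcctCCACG
Calr: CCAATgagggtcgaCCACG
Hsp90b1: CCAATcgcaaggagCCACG
Canx: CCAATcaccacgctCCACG
Creld2: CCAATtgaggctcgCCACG
Dnajc3: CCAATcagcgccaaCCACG
Syvn1: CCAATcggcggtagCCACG
Derl3: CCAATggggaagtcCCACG
Hsp90b1 held another ERSE nearer to its start, and Pdia6 held an ERSE as well.

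The 250 bases upstream of the start are printed next for 4 members that differ in which element they hold, each on the strand of its gene and with the matches in capitals. Hspa5 (chr2:34771840-34772089, plus strand) held an ERSE and a UPRE core, Calr (chr8:84846932-84847181, minus strand) an ERSE on its other strand, Herpud1 (chr8:94386179-94386428, plus strand) an ERSE-II, and Kdelr3 (chr15:79516158-79516407, plus strand) a UPRE core on its other strand. Coordinates are those of GRCm38.p6, whereas the authors' tables were made on mm9.
Hspa5: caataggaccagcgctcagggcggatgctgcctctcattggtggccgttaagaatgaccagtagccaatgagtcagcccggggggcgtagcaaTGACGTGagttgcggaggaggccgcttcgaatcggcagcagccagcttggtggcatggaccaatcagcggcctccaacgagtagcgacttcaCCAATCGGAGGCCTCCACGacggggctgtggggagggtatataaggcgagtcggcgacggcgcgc
Calr: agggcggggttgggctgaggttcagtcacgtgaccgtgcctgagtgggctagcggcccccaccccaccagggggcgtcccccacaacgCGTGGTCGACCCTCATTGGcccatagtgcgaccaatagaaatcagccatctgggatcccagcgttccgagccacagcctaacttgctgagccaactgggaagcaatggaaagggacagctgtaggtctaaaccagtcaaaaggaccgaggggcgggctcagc
Herpud1: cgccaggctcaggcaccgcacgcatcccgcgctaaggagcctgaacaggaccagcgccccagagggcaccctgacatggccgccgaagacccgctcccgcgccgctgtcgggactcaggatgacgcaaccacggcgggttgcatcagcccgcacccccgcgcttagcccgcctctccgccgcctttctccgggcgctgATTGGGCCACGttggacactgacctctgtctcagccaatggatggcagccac
Kdelr3: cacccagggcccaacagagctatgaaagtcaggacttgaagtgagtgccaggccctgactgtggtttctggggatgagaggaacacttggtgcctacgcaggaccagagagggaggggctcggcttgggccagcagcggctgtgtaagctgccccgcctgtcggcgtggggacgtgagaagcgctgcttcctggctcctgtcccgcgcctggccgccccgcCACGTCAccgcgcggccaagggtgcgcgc
The ERSE of Hspa5 ended 47 bases before its start and the ERSE-II of Herpud1 ended 42 bases before it, both close to the start, whereas the ERSE of Calr ended 144 bases before it.

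**Figure D1:**
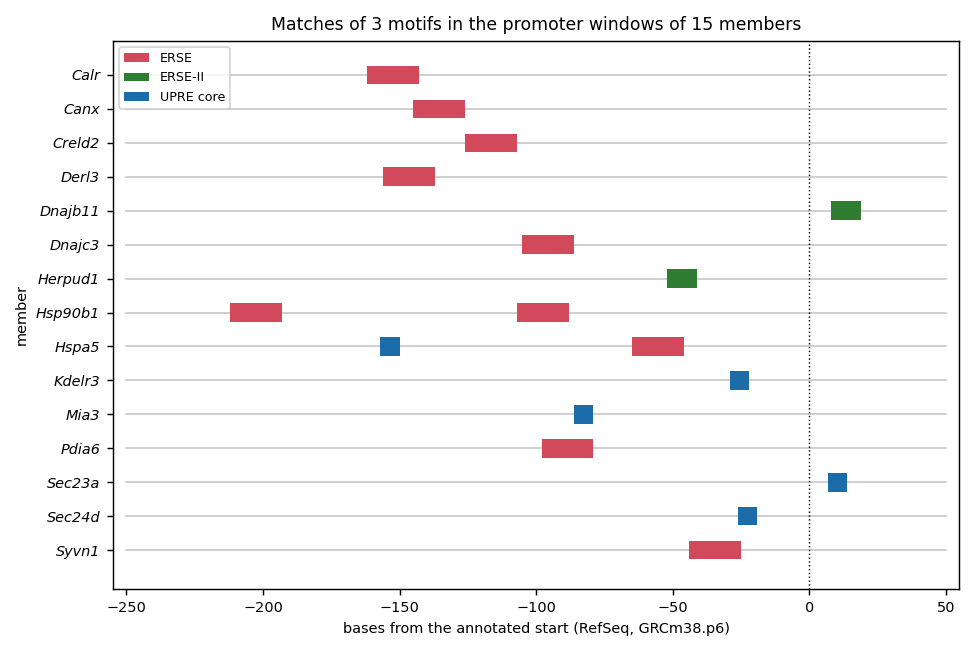
Positions of the ERSE, ERSE-II and UPRE core matches (coloured bars) in the promoter windows of the 15 members that held at least 1, in bases from the annotated start (dotted line). All but 2 of the 15 members had their matches upstream of the start; in Dnajb11 and Sec23a the match lay after it.

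Of the members with a window, 23 were called higher on day 35 in untreated or vehicle-treated cells in the comparisons that follow. Of these, 8 held any of the 3 elements (34.8%), against 6 of the 10 that were tested and not called (60%). Over all genes with a window the share was 2.39%. The 6 were Canx, Derl3, Hsp90b1, Pdia6, Sec24d and Syvn1. Derl3 and Syvn1 averaged 0.439 and 0.256 CPM per kilobase in vehicle cells at day 3. Canx had a count of 0 in every hormone library. In the fit by replicate number given below, Canx and Hsp90b1 were called higher on untreated day 35 and Pdia6 lower. Whether members with an element rose less often was not tested.

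In untreated cells, few of the ER genes were called before day 28, and more of them were higher than lower on days 28 and 35. A gene was called when its adjusted p in limma was under 0.05 across the 9629 genes tested against day 3; 36 members passed the filter on low values (1 scaled RPKM or more in 3 libraries), and Ero1l, Syvn1, Derl3, Ssr1 and Sar1b did not. No member was called higher on day 7, where 13.9% of all genes were, and 2 were called lower, where 17.4% were; at an unadjusted p under 0.05, 1 member was higher on day 7. On day 14, 2 members were called higher and 3 lower, against 17.0% and 21.4% of all genes, and on day 21 the counts were 5 and 4, against 21.7% and 24.8%. On day 28, 13 members were called higher and 2 lower, against 24.3% and 26.0% of all genes. By day 35, 20 of the 36 were called higher and 1 lower, against 27.0% and 27.9% of all genes, and the median log2 change was 0.77 over the members and 0.01 over all genes. By their means over the 3 libraries, 21 of the 36 were highest on day 35 (58.3%, against 26.3% of all genes), and 15 were lowest on day 14 (41.7%, against 10.9% of all genes).

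The number of members called higher on day 35 depends on the scaling of the libraries. With RPKM as listed, the median of all genes lay at -0.69 and that of the members at -0.07, and 4 members were called higher and 8 lower. With RPKM rescaled to the rows other than these 4, the median of all genes lay at -0.36 and that of the members at 0.35, and 15 members were called higher and 4 lower. The members' median lay above that of all genes under each of these scalings. Log2 changes of untreated cells were taken on log2(scaled RPKM + 0.5), which understates the change of low genes.

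Libraries with the same replicate number deviated together in the untreated cells, and a fit that takes the replicate number as a block called 24 members higher on day 35 and 2 lower. Gained under the block were Canx (log2 change 0.93, limma adjusted p = 1.37e-05 against 0.0925 without the block), Hsp90b1 (0.46, 0.000269 against 0.0587), Xbp1 (1.03, 9.11e-05 against 0.0997) and Derl2 (0.55, 0.0338 against 0.104), all higher, and Pdia6 (-1.43, 0.00854 against 0.118), lower. On earlier days the block gave 3 members higher and 4 lower on day 7, 3 and 7 on day 14, 10 and 5 on day 21, and 19 and 3 on day 28. The run numbers in the deposited names put replicate 1 of every day in the same run. In that run all 20 members called higher on day 35 were higher on day 35 than on day 3. They differed by 0.33 to 2.36 on the log2 scale, with a median of 1.25, against 0.02 over all genes tested. These libraries were part of the fit that made the calls, so this is no separate test of them. Replicates 2 and 3 of the 2 days were from different runs.

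**Figure D2:**
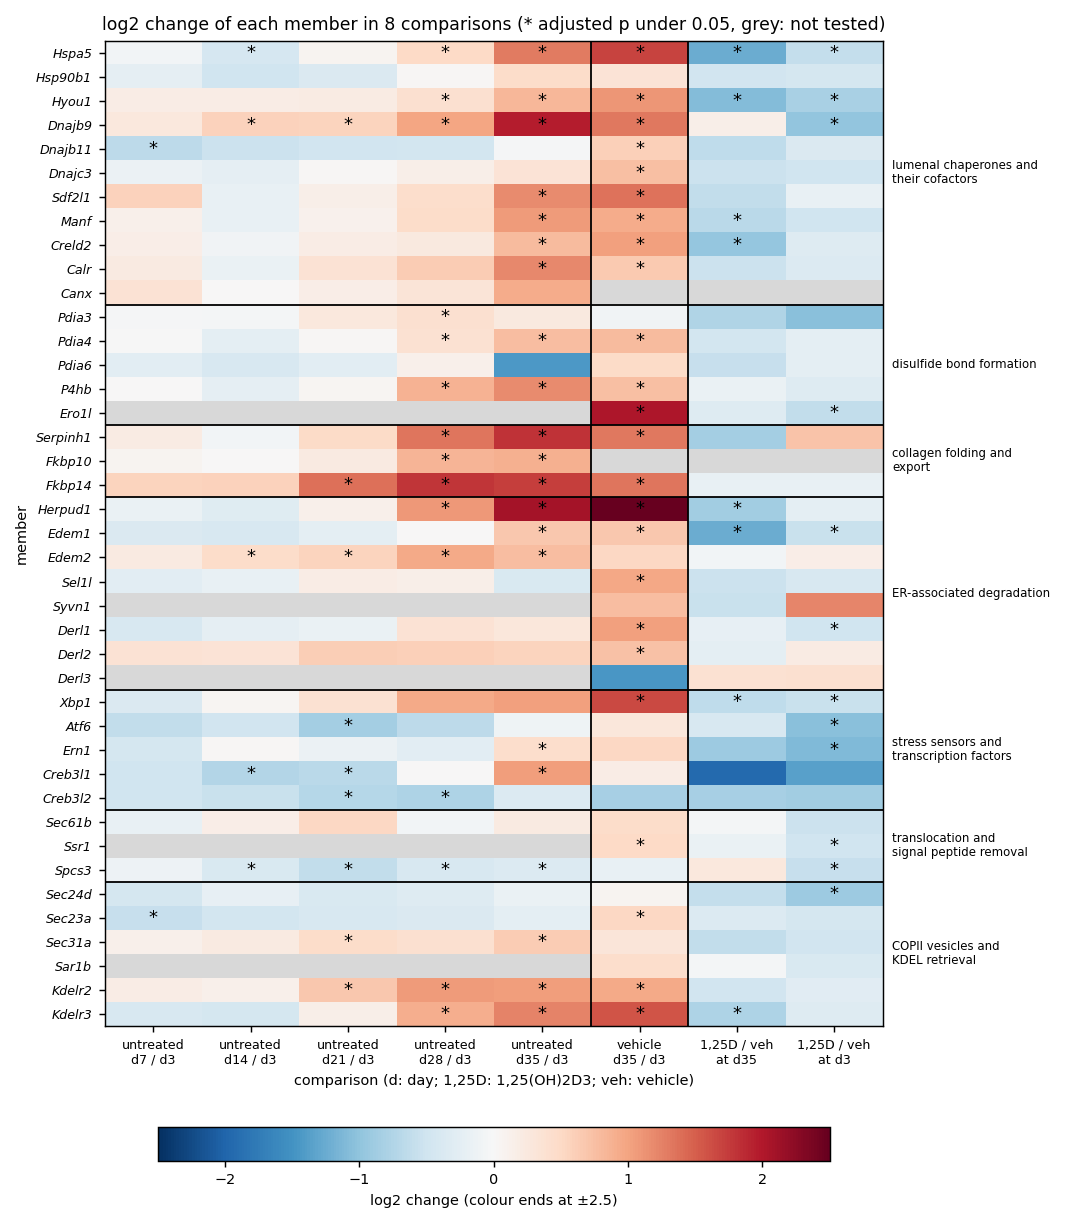
Log2 change of the 41 members with a row (down the page, by role) in 8 comparisons (across), as colour from blue (lower) to red (higher), with a star where the adjusted p was under 0.05 and grey where a member was not tested. Red fills in from day 21 to day 35 in untreated cells and again in vehicle-treated cells at day 35, where 24 members carry a star; the 2 columns for 1,25(OH)2D3 have 8 stars at day 35 and 12 at day 3, all on blue.

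Vehicle-treated cells were compared between day 35 and day 3 in other libraries, made with another kit. In edgeR's quasi-likelihood test across 20055 genes, 39 members were tested, of which 24 were called higher at day 35 and 0 lower, against 15.5% and 14.5% of all genes. The median log2 change was 0.74 over the members and 0.17 over all genes. At an unadjusted p under 0.05 the count of members lower at day 35 was 0, and DESeq2 called 0 lower. Of the 34 members tested in both experiments, 15 were called higher in both (44.1%), against 13.7% of the 9090 genes tested in both. These 15 were 75% of the members called higher in untreated cells and 62.5% of those called higher in vehicle cells. Those called include Fkbp10, which was not tested in vehicle cells, and Ero1l and Ssr1, which were not tested in untreated cells.

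**Figure D3:**
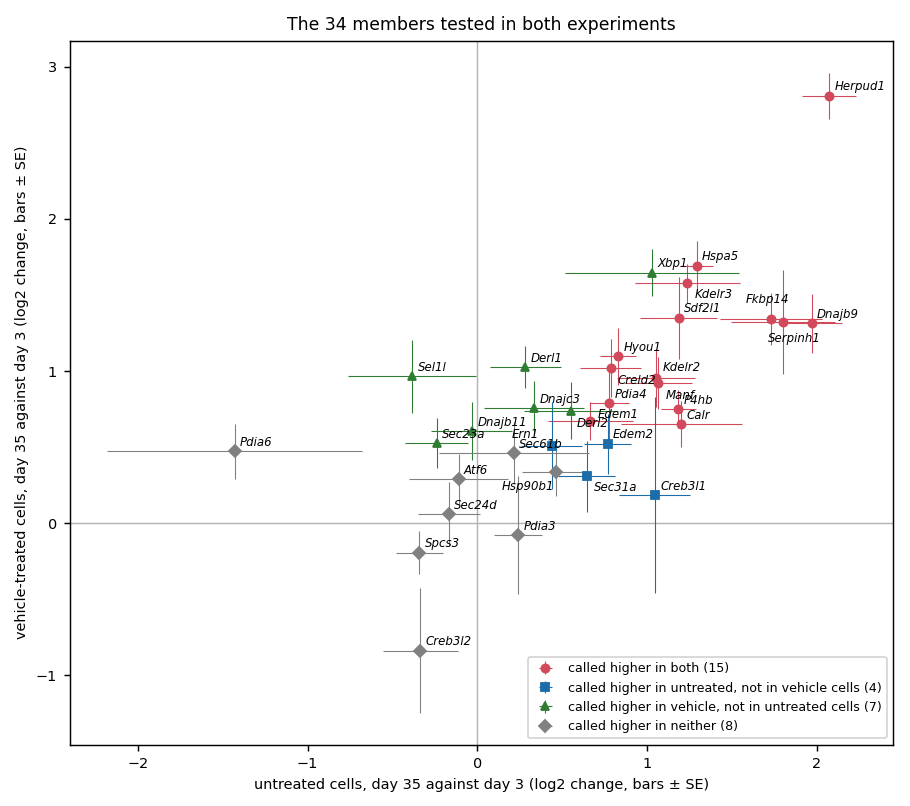
Log2 change on day 35 against day 3 in untreated cells (x axis) and in vehicle-treated cells (y axis) for the 34 members tested in both, with bars of 1 standard error; colours and shapes give in which experiment a member was called higher. The 15 members called in both lie in the upper right, with Herpud1 farthest out at 2.07 and 2.81, and Pdia6 and Creb3l2 lie apart from the rest.

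Beside the counts by role that follow, 27.0% of all genes were called higher on day 35 in untreated cells and 15.5% in vehicle cells, and several groups are small. Among the lumenal chaperones, 7 of 11 were called higher on day 35 in untreated cells and 9 of 10 in vehicle cells. Hspa5, which encodes BiP, the main Hsp70 of the ER, had 316, 286 and 264 scaled RPKM on untreated day 35, against 116, 118 and 118 on day 3. The day 35 libraries all stood above the day 3 libraries, and the change was 2.45-fold (log2 1.29 ± 0.10, SE; limma adjusted p = 2.72e-08). Before that, on day 14, it had fallen to 83.5, 88.4 and 90.9 scaled RPKM (log2 -0.42 ± 0.10, limma adjusted p = 0.00282). In vehicle cells, Hspa5 had 460, 461 and 522 CPM at day 35, against 139, 140 and 167 at day 3. Again no library overlapped, and the change was 3.23-fold (log2 1.69 ± 0.16, edgeR adjusted p = 1.49e-06).

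Dnajb9, a J-domain cofactor that brings clients to BiP and restrains IRE1, was called higher from day 14 on. Its mean was 33.1 ± 4.1 scaled RPKM on day 3 (SD, n = 3), 40.5 ± 8.9 on day 7, 49.9 ± 10.7 on day 14, 49.3 ± 7.6 on day 21, 65.6 ± 4.8 on day 28 and 131 ± 18 on day 35. The log2 change was 0.57 ± 0.18 on day 14 (limma adjusted p = 0.0207). That call was kept in 9 of 14 alternative settings, with an adjusted p of up to 0.107, and the call on day 21 in 10 of 14. Day 35 stood 3.91-fold above day 3 (log2 1.97 ± 0.18, adjusted p = 2.16e-07). In vehicle cells, Dnajb9 had 124, 103 and 128 CPM at day 35, against 38.6, 64.2 and 39.6 at day 3 (2.49-fold, edgeR adjusted p = 9.24e-05), with no overlap although replicate 2 of day 3 stood above its fellows.

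Hyou1, an Hsp110-type nucleotide exchange factor for BiP, had 11.0, 12.1 and 12.0 scaled RPKM on untreated day 35, against 5.89, 6.89 and 6.32 on day 3. The groups were apart (1.78-fold, limma adjusted p = 5.48e-06), as they were in vehicle cells (2.14-fold, edgeR adjusted p = 0.000387). Smaller secretory stress proteins were higher on day 35 in both experiments: Manf, a secreted ER-stress protein, was 2.09-fold higher in untreated cells and 1.90-fold in vehicle cells, Sdf2l1, a partner of BiP complexes, 2.28-fold and 2.55-fold, and Creld2, an ER-stress-inducible disulfide isomerase, 1.72-fold and 2.03-fold. Replicate 1 of untreated day 35 was the highest library for Sdf2l1 and Creld2, with 18.1 scaled RPKM of Sdf2l1 against 8.52 and 9.73 in replicates 2 and 3.

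The lectin chaperone calreticulin (Calr) was among the most abundant members, with 766, 1154 and 992 scaled RPKM on untreated day 35, against 268, 491 and 548 on day 3. No library overlapped, although replicate 1 was the lowest on both days (2.30-fold, limma adjusted p = 0.00911, and 0.0672 without replicate 1 of day 3). In vehicle cells the change of Calr was 1.57-fold (edgeR adjusted p = 0.00381). Its membrane-bound relative Canx had 10.2, 20.6 and 14.7 scaled RPKM on untreated day 35, against 4.40, 9.02 and 10.2 on day 3, and the groups overlapped. Hsp90b1, which encodes the ER form of Hsp90, missed the threshold in untreated cells without the block and in vehicle cells (log2 0.34 ± 0.16, edgeR adjusted p = 0.124). The BiP cofactors Dnajb11 (1.52-fold) and Dnajc3 (1.69-fold) were called higher in vehicle cells; in untreated cells their log2 changes were -0.03 ± 0.24 and 0.33 ± 0.30 and neither was called.

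**Figure D4:**
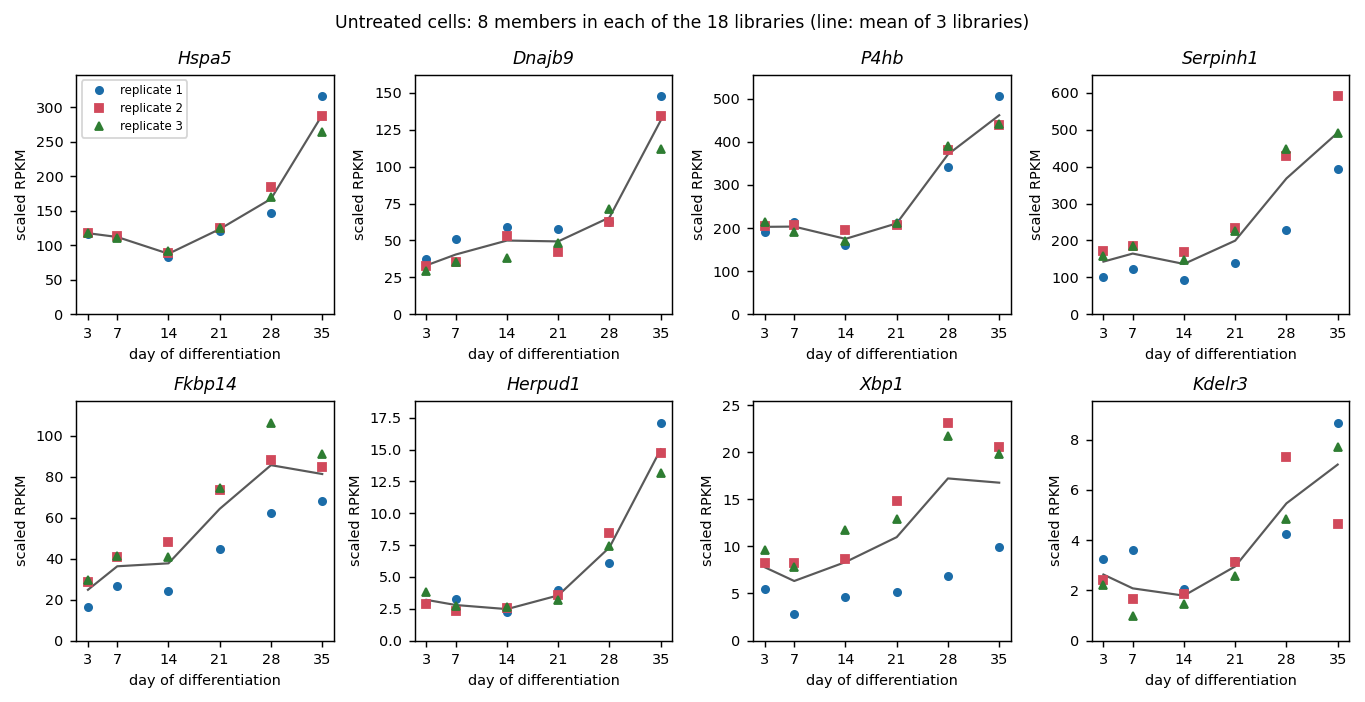
Scaled RPKM (y axis, from 0) of 8 members in each of the 18 untreated libraries by day of differentiation (x axis); points are replicates 1 to 3 and the line joins the means. Hspa5 and Herpud1 have their lowest mean on day 14 and their highest on day 35, P4hb and Serpinh1 are high on days 28 and 35, and replicate 1 lies lowest on every day for Serpinh1, Fkbp14 and Xbp1.

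Of the disulfide bond enzymes, 2 of 4 were called higher on day 35 in untreated cells and 3 of 5 in vehicle cells. P4hb, the protein disulfide isomerase that is also the β subunit of collagen prolyl 4-hydroxylase, had 505, 439 and 440.5 scaled RPKM on untreated day 35, against 191, 204 and 214 on day 3. Its libraries were apart by a wide margin (2.27-fold, log2 1.18 ± 0.10, limma adjusted p = 1.07e-07), and it was already called higher on day 28 (1.83-fold). Vehicle cells had 1490, 1432 and 1715 CPM of P4hb at day 35, against 965, 893 and 898 at day 3 (1.68-fold, edgeR adjusted p = 0.000337). Pdia4, another isomerase, was 1.71-fold higher in untreated cells (limma adjusted p = 2.67e-05) and 1.73-fold in vehicle cells (edgeR adjusted p = 0.03), where the groups overlapped and 0.159 was the adjusted p without replicate 3 of vehicle day 35.

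Ero1l, the oxidase that recharges these isomerases (now named Ero1a), was below the filter in untreated cells, at 0 to 0.291 scaled RPKM. In vehicle cells it had 167, 122 and 136 CPM at day 35, against 27.8, 42.4 and 34.7 at day 3. That 4.05-fold difference (log2 2.02 ± 0.20, edgeR adjusted p = 1.98e-06) is the second highest among the members after Herpud1. Pdia3, the glycoprotein-specific isomerase, was called in neither experiment on day 35 (log2 0.24 ± 0.14 in untreated cells and -0.08 ± 0.39 in vehicle cells). Pdia6, an isomerase that attenuates IRE1, had 1.89, 1.93 and 1.14 scaled RPKM on untreated day 35, against 3.21, 6.38 and 6.79 on day 3, whereas in vehicle cells its log2 change was 0.47 ± 0.18 (edgeR adjusted p = 0.0644).

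All 3 collagen folding members with a row were called higher in untreated cells, and both that could be tested were called higher in vehicle cells. Serpinh1 encodes HSP47, a chaperone for procollagen, and had 393, 590 and 492 scaled RPKM on untreated day 35, against 101, 170 and 157 on day 3. Every day 35 library lay far above every day 3 library, and the change was 3.48-fold (log2 1.80 ± 0.31, limma adjusted p = 0.000117). Its low counts in the hormone tables gave 10.4, 14.1 and 11.7 CPM in vehicle cells at day 35, against 5.95, 2.21 and 6.28 at day 3 (2.5-fold, edgeR adjusted p = 0.00839).

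Fkbp14, an ER prolyl isomerase that is mutated in a form of Ehlers-Danlos syndrome in humans, was called higher from day 21 on without the replicate block. Its mean was 24.8 ± 7.4 scaled RPKM on day 3 (SD, n = 3), 64.2 ± 16.9 on day 21, 85.5 ± 22.3 on day 28 and 81.2 ± 11.7 on day 35. The log2 change on day 21 was 1.37 ± 0.30 (limma adjusted p = 0.00141). With the replicate block it was called higher already on day 7 (log2 0.56, limma adjusted p = 0.000566) and day 14 (0.58, 0.000293). The changes at days 28 and 35 (3.44-fold and 3.32-fold) were within the spread of the libraries of each other. Vehicle cells had 438, 388 and 440 CPM at day 35, against 188, 130 and 181 at day 3 (2.53-fold, edgeR adjusted p = 2.55e-05). Fkbp10, which encodes FKBP65, a partner of HSP47 in collagen maturation, had 6.89, 5.27 and 7.03 scaled RPKM on untreated day 35, against 2.82, 3.31 and 3.41 on day 3 (1.86-fold, limma adjusted p = 7.17e-05).

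Of the degradation genes, 3 of 6 were called higher on untreated day 35 and 5 of 8 in vehicle cells. Herpud1, which recruits the ubiquitin ligase complex at the ER membrane, had 17.1, 14.8 and 13.2 scaled RPKM on untreated day 35, against 2.93, 2.87 and 3.78 on day 3. No library came near the other group (4.20-fold, log2 2.07 ± 0.16, limma adjusted p = 2.95e-08), and the gene was 2.11-fold higher by day 28. In vehicle cells it had 261, 307 and 314 CPM at day 35, against 42.5, 41.0 and 42.3 at day 3. This 7.01-fold change (log2 2.81 ± 0.15, edgeR adjusted p = 4.25e-09) is the highest of any member in either experiment.

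Edem1 and Edem2 encode lectins that hand misfolded glycoproteins to the degradation machinery. Edem2 was called higher from day 14 on (1.37-fold, a call kept in 10 of 14 alternative settings), with a high of 2.76, 3.53 and 2.85 scaled RPKM on day 28 and 1.70-fold the day 3 level on day 35 (limma adjusted p = 0.000228); in vehicle cells it missed the threshold (1.44-fold, edgeR adjusted p = 0.0589). Edem1 was 1.58-fold higher on untreated day 35 (limma adjusted p = 0.034), a call that 6 of 14 alternative settings kept, and 1.59-fold in vehicle cells (edgeR adjusted p = 0.000712), with 299, 299 and 298 CPM at day 35 against 180, 195 and 189 at day 3. Derl1, a channel-forming rhomboid protein, was 2.04-fold higher in vehicle cells (edgeR adjusted p = 3.75e-05), as were Derl2 (1.67-fold) and Sel1l, the adaptor of the ligase HRD1 (1.95-fold). Untreated libraries had 1.97, 0.845 and 1.196 scaled RPKM of Sel1l on day 35 against 2.82, 0.943 and 2.12 on day 3, and overlapped (log2 -0.38 ± 0.38, limma adjusted p = 0.409). Syvn1, which encodes HRD1, stayed at 0.326 to 0.967 scaled RPKM in the untreated libraries and 0.564 to 3.40 CPM in the hormone libraries, and Derl3 at 0 to 1.02 scaled RPKM and 0 to 1.23 CPM.

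Among the sensors and transcription factors, 2 of 5 were called higher on untreated day 35 and 1 of 5 in vehicle cells. Xbp1, whose mRNA is spliced by IRE1 to give an active transcription factor, had 9.95, 20.5 and 19.8 scaled RPKM on untreated day 35, against 5.44, 8.21 and 9.66 on day 3; replicate 1 was low on every day. In vehicle cells the libraries were tight, with 252, 257 and 248 CPM at day 35 against 77.3, 84.5 and 80.0 at day 3. The 3.13-fold difference there was called (log2 1.65 ± 0.15, edgeR adjusted p = 9.82e-07). These gene-level values do not separate the spliced and unspliced forms.

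The membrane-bound factor OASIS (Creb3l1) had a low point in the middle of the course. Its mean was 0.941 ± 0.192 scaled RPKM on day 3 (SD, n = 3), 0.534 ± 0.209 on day 7, 0.371 ± 0.079 on day 14, 0.413 ± 0.178 on day 21, 0.956 ± 0.287 on day 28 and 2.502 ± 0.661 on day 35. It was called lower on days 14 and 21 (log2 -0.72 and -0.67 ± 0.21, limma adjusted p = 0.0123 and 0.0157) and higher on day 35 (log2 1.04 ± 0.21, limma adjusted p = 0.000529). Vehicle cells spread too widely to compare, with 32.5, 13.0 and 13.6 CPM at day 35 against 5.27, 36.3 and 10.6 at day 3 (edgeR adjusted p = 0.866).

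Its relative Creb3l2, known for its part in secretion by mouse cartilage cells, was called lower on days 21 and 28 (log2 -0.71 and -0.78 ± 0.22) and was not called on day 35 in either experiment. Atf6 was called lower on day 21 (log2 -0.85 ± 0.29, limma adjusted p = 0.0254), and with the replicate block also on day 7 (-0.61, 0.027) and day 28 (-0.65, 0.0126). On day 21 it had 0.664, 0.694 and 0.813 scaled RPKM, against 2.35, 1.89 and 1.06 on day 3. Ern1, which encodes IRE1, had 3.15, 2.81 and 1.86 scaled RPKM on untreated day 35, against 2.34, 1.58 and 1.45 on day 3. Those groups overlapped, and the call (1.35-fold, limma adjusted p = 0.0489) was kept in 4 of 14 alternative settings.

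Of the genes for entry into the ER, 0 of 2 were called higher on untreated day 35 and 1 of 3 in vehicle cells. Spcs3, a subunit of signal peptidase, was the 1 member called lower on untreated day 35, with 9.08, 10.2 and 8.78 scaled RPKM against 14.2, 10.2 and 11.8 on day 3. The groups overlapped (0.79-fold, limma adjusted p = 0.0469), and 9 of 14 alternative settings kept the call; on day 21 it was 0.65-fold with no overlap (limma adjusted p = 0.00168). In vehicle cells Spcs3 was not called (log2 -0.19 ± 0.14). Ssr1, a subunit of the translocon-associated complex, was 1.42-fold higher in vehicle cells (edgeR adjusted p = 0.0209, and 0.0516 to 0.0901 without replicate 2 or 3 of either day), and Sec61b, a subunit of the Sec61 channel, was called in neither experiment.

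For export and retrieval, 3 of 5 members were called higher on untreated day 35 and 3 of 6 in vehicle cells. The KDEL receptors, which return escaped chaperones from the Golgi, were called in both. Kdelr2 had 70.8, 50.7 and 40.7 scaled RPKM on untreated day 35, against 29.6, 22.7 and 23.8 on day 3 (2.07-fold, limma adjusted p = 0.00101), and was 1.94-fold higher in vehicle cells. Kdelr3, whose promoter window held the UPRE core printed above, had 8.68, 4.66 and 7.70 scaled RPKM on untreated day 35, against 3.26, 2.41 and 2.22 on day 3 (2.35-fold, limma adjusted p = 0.00297). In vehicle cells Kdelr3 was 2.98-fold higher (log2 1.58 ± 0.13, edgeR adjusted p = 2.79e-07), with 89.5, 82.8 and 89.1 CPM at day 35 against 27.0, 30.1 and 30.6 at day 3. The receptors thus had no overlap between day 35 and day 3 in either experiment.

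Among the COPII coat genes, Sec31a, an outer coat subunit, was 1.56-fold higher on untreated day 35 (limma adjusted p = 0.00424) and was not called in vehicle cells (1.24-fold). Sec23a, an inner coat subunit, was 1.44-fold higher in vehicle cells (edgeR adjusted p = 0.0247, and 0.0757 without replicate 1 of vehicle day 35) and was not called in untreated cells (0.85-fold). Sec24d, a cargo-binding coat subunit, had log2 changes of -0.17 ± 0.18 and 0.06 ± 0.21, and Sar1b, the GTPase that starts coat assembly, one of 0.44 ± 0.25 in vehicle cells; neither was called.

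With 24 h of 1,25(OH)2D3 at day 35, 8 of the 39 members were called lower and 0 higher. Over all genes 2.14% were called lower and 2.41% higher, with a median log2 change of 0.02, against -0.55 over the members. The 8 were the chaperone genes Hspa5, Hyou1, Manf and Creld2, the degradation genes Herpud1 and Edem1, Xbp1 and Kdelr3. This comparison shares its vehicle libraries with that of day 35 and day 3 in vehicle cells, so the 2 are not independent. At an unadjusted p under 0.05 0 members were higher with the hormone, and DESeq2 called 0 higher and 11 lower.

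Hspa5 had 205, 195 and 211 CPM in hormone-treated cells at day 35, against 460, 461 and 522 in vehicle cells. All hormone libraries lay far below all vehicle libraries, and the change was 0.42-fold (log2 -1.24 ± 0.16, edgeR adjusted p = 0.000228). Edem1 had 140.5, 113 and 124 CPM with the hormone, against 299, 299 and 298 with vehicle. The vehicle libraries of Edem1 nearly coincided, and the change was also 0.42-fold (log2 -1.24 ± 0.13, edgeR adjusted p = 2e-05), the smallest adjusted p of any member in this comparison. Hyou1 had 66.8, 60.5 and 58.7 CPM with the hormone, against 128, 117 and 149 with vehicle (0.47-fold, edgeR adjusted p = 0.00257), again with no overlap.

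Creld2 had 23.3, 21.3 and 23.6 CPM in hormone-treated cells at day 35, against 35.6, 43.5 and 53.7 in vehicle cells (0.51-fold, edgeR adjusted p = 0.00688). Herpud1 had 158, 148 and 174 CPM with the hormone, against 261, 307 and 314 with vehicle (0.55-fold, edgeR adjusted p = 0.00142), and Kdelr3 53.1, 46.7 and 53.0 CPM, against 89.5, 82.8 and 89.1 (0.58-fold, edgeR adjusted p = 0.00162). The groups were apart for each of these genes, and Hspa5, Hyou1, Edem1, Creld2, Herpud1 and Kdelr3 were called in all 12 alternative settings. Manf (0.62-fold, edgeR adjusted p = 0.0321) and Xbp1 (0.64-fold, 0.0216) were called in 6 of 12 each; without replicate 3 of vehicle day 35 the adjusted p of Manf was 0.229, and without replicate 2 of vehicle day 35 that of Xbp1 was 0.133.

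Dnajb9 and the collagen and disulfide genes were not among the 8. Dnajb9 had 125.4, 114 and 155 CPM in hormone-treated cells at day 35, against 124, 103 and 128 in vehicle cells, with overlap (log2 0.16 ± 0.19, edgeR adjusted p = 0.803). P4hb had 1399, 1301 and 1415 CPM, against 1490, 1432 and 1715 (log2 -0.17 ± 0.13, edgeR adjusted p = 0.64), and Fkbp14 had a log2 change of -0.18 ± 0.17. Calr stood below vehicle in every hormone library, 895, 750 and 931 CPM against 1064, 1199 and 1458, and its adjusted p was 0.0617 (log2 -0.53 ± 0.15). The osteoblast and osteocyte markers were lower in sum with the hormone at day 35, 10744 to 13518 CPM against 20537 to 26437 with vehicle. Of the 10 genes, 4 were called lower. Most of that sum was Ibsp (mean 5452 CPM with the hormone, 14272 with vehicle) and Col1a1 (5316 and 7525 CPM). Dmp1 went the other way, with a mean of 254 CPM with the hormone against 182 with vehicle. The chondrocyte markers lay at 197 to 237 CPM in sum with the hormone against 267 to 388 with vehicle, and the adipocyte markers at 20.5 to 43.0 CPM against 11.3 to 17.9. The part of these 3 lists in the result was not tested. Hormone replicate 2 of day 35 carried more stray reads than the other 2 (10.1 against 1.33 and 1.82 reads per kilobase of olfactory receptor genes), and with that density subtracted from every library all 8 were called lower.

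**Figure D5:**
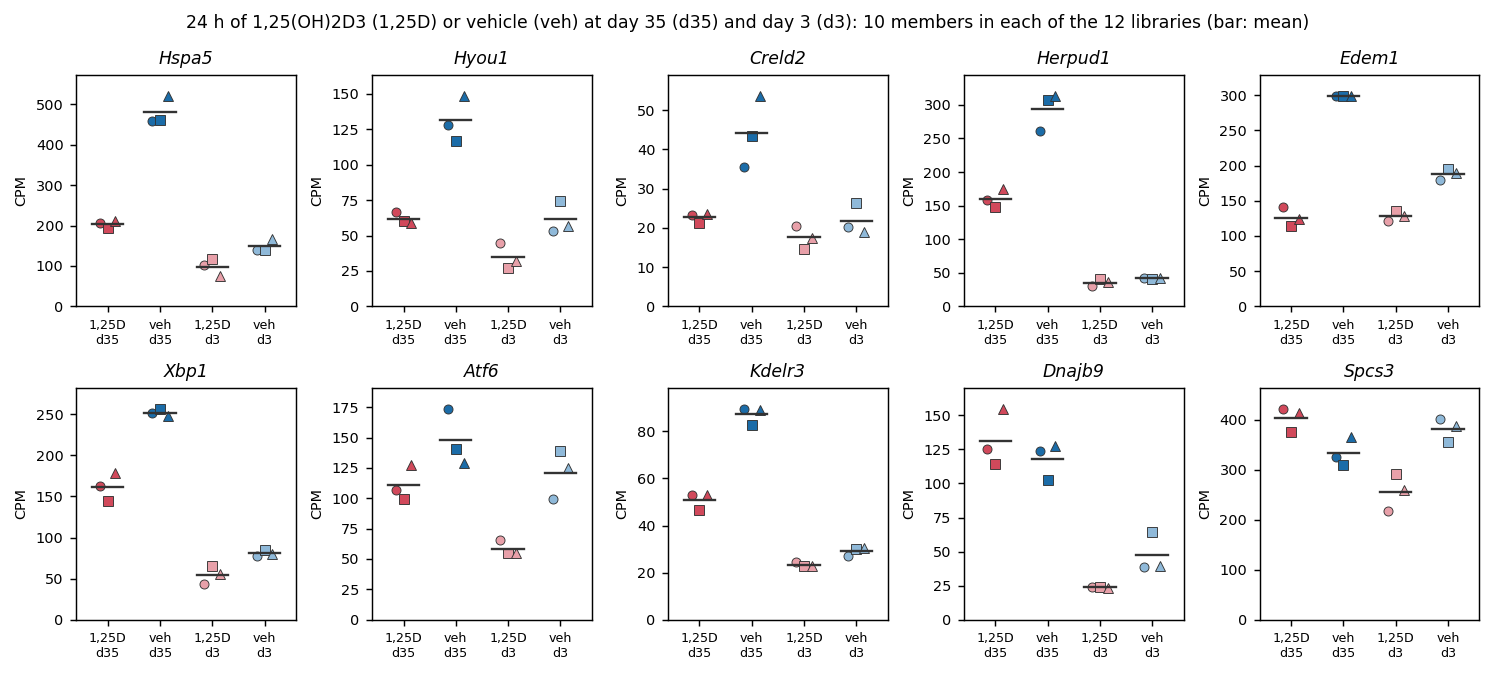
CPM (y axis, from 0) of 10 members in the 12 hormone-experiment libraries; from left to right 1,25(OH)2D3 and vehicle at day 35, then 1,25(OH)2D3 and vehicle at day 3, with circles, squares and triangles for replicates 1 to 3 and a bar at the mean. The red day 35 points lie below the blue ones for Hspa5, Hyou1, Creld2, Herpud1, Edem1, Xbp1, Atf6 and Kdelr3, mix with them for Dnajb9 and lie above them for Spcs3.

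At day 3, 12 of the 39 members were called lower with 1,25(OH)2D3 and 0 higher, against 9.09% of all genes lower and 11.4% higher. The median log2 change was -0.44 over the members and 0.26 over all genes. At an unadjusted p under 0.05 1 member was higher, and DESeq2 called 0 higher and 13 lower. The hormone libraries of day 3 carried more stray reads than the vehicle libraries: genes of the olfactory receptor family, known from sensory neurons of the nose, had 11.0 to 15.3 reads per kilobase there, against 1.36 to 1.82 in vehicle cells at day 3. For the 35 members with 1 row, reads at that density made up a median of 1.54% of the counts in these libraries, and under 5% in 29 of them. With this density subtracted from every library, the median log2 change at day 3 was -0.01 over all genes and -0.21 over the members, and 6 members were called lower: Atf6, Ern1, Dnajb9, Hyou1, Sec24d and, newly, Sel1l. The other 7 of the 12 were no longer called (log2 -0.22 to -0.43, edgeR adjusted p = 0.0857 to 0.334). For Sel1l, which is on more than 1 row, reads at the stray density were 50.7% of its counts in the hormone libraries of day 3. In vehicle cells at day 3 they were 3.56%, so its new call rests largely on the subtraction. Without hormone replicate 3 of day 3, 5 members were called lower. Adipocyte markers, summed over 5 genes, lay at 1.64 to 161 CPM in hormone-treated cells at day 3, highest in replicate 3, against 1.61 to 3.92 CPM in vehicle cells, where Adipoq and Cfd were at 0; their part in the result was not tested.

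Of the sensors and transcription factors, 3 of 5 were called lower at day 3. Atf6, the sensor that is cut in the Golgi to release a transcription factor, had 65.7, 55.1 and 54.9 CPM in hormone-treated cells, against 99.1, 139 and 124.8 in vehicle cells. Its groups were well apart (0.48-fold, log2 -1.04 ± 0.17, edgeR adjusted p = 0.000747), and it was called in all 12 alternative settings. Ern1 had 21.4, 11.7 and 11.6 CPM with the hormone, against 18.6, 43.1 and 33.7 with vehicle, which overlapped (log2 -1.10 ± 0.29, edgeR adjusted p = 0.0196; 18.4% of its counts were at the stray density, and its adjusted p was 0.0828 without hormone replicate 3). Xbp1 had 43.6, 65.1 and 55.3 CPM, against 77.3, 84.5 and 80.0 (0.68-fold, edgeR adjusted p = 0.0215, and 0.0683 without hormone replicate 3).

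Dnajb9 had 24.3, 24.1 and 23.0 CPM in hormone-treated cells at day 3, against 38.6, 64.2 and 39.6 in vehicle cells. All hormone libraries were below all vehicle libraries (0.50-fold, log2 -0.995 ± 0.19, edgeR adjusted p = 0.00317). Hyou1 had 45.0, 27.4 and 32.1 CPM, against 53.1, 74.7 and 56.5 (0.57-fold, edgeR adjusted p = 0.0096), and like Dnajb9 and Atf6 it was called in all 12 alternative settings. Hspa5 had 102, 118 and 74.9 CPM, against 139, 140 and 167, with no overlap (0.66-fold, edgeR adjusted p = 0.0215, 0.175 with the stray density subtracted and 0.0963 without hormone replicate 3, its lowest library).

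Edem1 had 121, 135 and 128 CPM in hormone-treated cells at day 3, against 180, 195 and 189 in vehicle cells (0.68-fold, edgeR adjusted p = 0.00856; with the stray density subtracted log2 -0.28, adjusted p = 0.0857). Sec24d had 184, 156 and 138 CPM, against 232, 366 and 299 (0.53-fold, edgeR adjusted p = 0.00968, and 0.0525 without hormone replicate 3), and Spcs3 217, 292 and 259 CPM, against 401, 356 and 387 (0.67-fold, edgeR adjusted p = 0.0133, and 0.0505 without hormone replicate 3). All 3 had every hormone library below every vehicle library. Ero1l (0.65-fold), Derl1 (0.70-fold) and Ssr1 (0.71-fold) complete the 12, with edgeR adjusted p of 0.0407, 0.0221 and 0.0345; these were called in 3, 7 and 7 of the 12 alternative settings, and their adjusted p was 0.0824, 0.0783 and 0.112 without hormone replicate 1. Herpud1 and Kdelr3, both called lower with the hormone at day 35, were not called at day 3 (log2 -0.24 ± 0.14 and -0.32 ± 0.13).

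Hspa5, Hyou1, Edem1 and Xbp1 were called lower with the hormone on both days, 4 of 39 members against 0.713% of all genes. With the stray density subtracted, Hyou1 is the 1 of these 4 still called on both days. The difference between the responses of the 2 days was tested as an interaction, day 35 minus day 3. It called 2 of the 39 members higher and 1 lower, close to the 4.14% and 2.94% of all genes. Dnajb9, called lower with the hormone at day 3 and not called at day 35, differed by 1.15 ± 0.27 on the log2 scale (edgeR adjusted p = 0.0177, and 0.0503 without hormone replicate 3 of day 3). Spcs3 differed by 0.85 ± 0.20 (edgeR adjusted p = 0.0175): at day 35 it had 421, 375 and 412 CPM with the hormone against 326, 309 and 366 with vehicle, each hormone library above each vehicle library, although that response alone was not called (adjusted p = 0.415). Edem1 was lowered further at day 35 than at day 3, by -0.70 ± 0.18 (edgeR adjusted p = 0.0262), a call that 6 of 17 alternative settings kept. For Herpud1 and Hspa5 the difference between the days did not pass (edgeR adjusted p = 0.0705 and 0.105).

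Other genes of the same pathways were counted in lists made alongside the members. Beside these counts, 27.0% of all genes were called higher and 27.9% lower on untreated day 35, and 15.5% higher and 14.5% lower in vehicle cells. Of the other ER chaperones and calcium binders, 15 of 21 were called higher on untreated day 35 and 1 lower, and 17 of 26 were called higher in vehicle cells and 0 lower. Fkbp11, an ER prolyl isomerase of secretory cells, had 38.4, 34.1 and 28.1 scaled RPKM on untreated day 35, against 6.60, 6.14 and 5.80 on day 3 (5.06-fold, limma adjusted p = 5.43e-09), and was 3.81-fold higher in vehicle cells. With 1,25(OH)2D3 at day 35 Fkbp11 had 62.4, 40.6 and 52.7 CPM, against 95.7, 112 and 123 with vehicle (0.47-fold, edgeR adjusted p = 0.000784). Cnpy2, a saposin-like ER protein, and Fkbp7, another prolyl isomerase, were 2.47-fold and 4.18-fold higher on untreated day 35. Ganab, the catalytic subunit of glucosidase II, was the 1 called lower (0.47-fold, limma adjusted p = 7.33e-05), and in vehicle cells its change was 0.84-fold and not called. The other disulfide enzymes had 5 of 12 higher and 0 lower in untreated cells, led by the sulfhydryl oxidase gene Qsox2 (1.74-fold) and the chaperone gene Erp29 (2.92-fold). In vehicle cells 3 of 15 were higher, among them Erp29 (2.07-fold) and Tmx2 (1.38-fold), and 1 was lower, Pdia2, at 0 CPM in all libraries of day 35 against 0.244, 0.338 and 0.183 CPM at day 3.

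Collagen hydroxylases and their partners split, with 6 higher and 2 lower of 10 on untreated day 35 and 5 higher and 2 lower of 10 in vehicle cells. P4ha1, a catalytic subunit that pairs with P4hb, had 1148, 1029 and 1212 CPM in vehicle cells at day 35, against 209, 144 and 167 at day 3 (6.53-fold, edgeR adjusted p = 1.05e-08). P4ha2, its paralogue, had 8.40, 6.51 and 6.52 scaled RPKM on untreated day 35, against 1.07, 0.755 and 0.757 on day 3 (5.61-fold, limma adjusted p = 1.71e-08). The third paralogue, P4ha3, went the other way, with 0.529, 0.564 and 0.622 scaled RPKM on untreated day 35, against 9.14, 7.15 and 7.21 on day 3 (0.13-fold, limma adjusted p = 1.19e-08), and was 0.45-fold in vehicle cells (edgeR adjusted p = 0.00712). Of the lysyl hydroxylases, Plod2 was lower on untreated day 35 (0.21-fold, limma adjusted p = 6.43e-05), with 0.297, 0.459 and 0.644 scaled RPKM against 5.14, 3.48 and 3.93 on day 3, and Plod1 was 2.59-fold higher in vehicle cells. The prolyl 3-hydroxylase gene Lepre1 was 3.02-fold higher on untreated day 35, and its relative Leprel1 0.41-fold in vehicle cells (edgeR adjusted p = 0.0266). P4ha2, Plod2 and Lepre1 are on more than 1 row, and P4ha2 and Plod2 were listed at a count of 0 in vehicle cells.

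Of the degradation genes outside the members, 4 of 16 were called higher and 3 lower on untreated day 35, and 4 of 15 higher and 0 lower in vehicle cells. Herpud2, a paralogue of Herpud1, was 2.02-fold higher in untreated cells, whereas Faf2, an adaptor of the extraction machinery, and the ubiquitin-conjugating enzyme gene Ube2j1 were 0.45-fold and 0.34-fold. In vehicle cells another conjugating enzyme, Ube2g2, was 2.41-fold and the lectin gene Erlec1 1.91-fold higher. Of the translocon, signal peptidase and glycosylation genes, 10 of 23 were higher and 4 lower in untreated cells, and 10 of 23 higher and 0 lower in vehicle cells. The signal peptidase gene Spcs1 (1.91-fold) and the signal recognition particle receptor gene Srpr (1.73-fold) led the higher ones in untreated cells, and Sec62 (0.44-fold) and Sec63 (0.64-fold), partners of the Sec61 channel, the lower ones. In vehicle cells Ssr4, a translocon-associated subunit, was 3.12-fold and the signal peptidase gene Sec11c 2.28-fold higher.

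Of the other COPII and cargo receptor genes, 10 of 18 were higher and 3 lower in untreated cells, and 10 of 22 higher and 0 lower in vehicle cells. Surf4, a cargo receptor for secreted proteins, was 2.5-fold higher on untreated day 35 and 1.71-fold in vehicle cells, the p24 receptor gene Tmed9 1.91-fold and 1.54-fold, and the SNARE gene Sec22b 1.74-fold and 2.27-fold. The coat genes Sec24b and Sec24c were 0.39-fold and 0.42-fold in untreated cells and were not called in vehicle cells. Among the other OASIS and ATF6 family factors, 2 of 4 were higher in each experiment, and Creb3 was 1.79-fold higher in both (limma adjusted p = 1.07e-06, edgeR adjusted p = 0.000495). The abundant secreted cargo itself had 9 of 12 higher and 3 lower in untreated cells, and 9 of 12 higher and 1 lower in vehicle cells. Serpinf1 and Sparc, both secreted matrix genes, were 8.95-fold and 7.31-fold higher on untreated day 35, and the bone matrix genes Ibsp and Bglap 375-fold and 82.8-fold higher in vehicle cells. Col12a1, a fibril-associated collagen, was lower in both (0.25-fold in untreated and 0.54-fold in vehicle cells), and Col5a1, a minor fibrillar collagen, was lower in untreated cells (0.5-fold) and 2.18-fold higher in vehicle cells.

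The third arm of the unfolded protein response, PERK and its target ATF4, has 12 genes in the list used here. Of these, 9 were called higher and 1 lower on untreated day 35, and 10 higher and 1 lower in vehicle cells, with median log2 changes of 1.85 and 1.71, beside 0.77 and 0.74 over the members. The stress gene Nupr1 (log2 5.32 ± 0.21) and Asns, for asparagine synthesis (3.03 ± 0.32), had the smallest adjusted p in untreated cells. Ddit3, which encodes the stress factor CHOP, had 28.8, 52.2 and 35.2 scaled RPKM on untreated day 35, against 4.73, 6.96 and 5.18 on day 3 (6.28-fold, limma adjusted p = 4.29e-05). Trib3, a pseudokinase induced by CHOP, had 89.0, 166 and 190 CPM in vehicle cells at day 35, against 1.49, 3.72 and 2.22 at day 3 (59.6-fold, edgeR adjusted p = 1.55e-08). With 1,25(OH)2D3 at day 35, 7 of the 12 were called lower and 0 higher, against 2.14% and 2.41% of all genes: Ddit3 had 23.0, 28.1 and 30.8 CPM against 46.5, 68.7 and 84.8 with vehicle (0.41-fold, edgeR adjusted p = 0.00096), and Trib3 was 0.42-fold. At day 3, 6 of the 12 were called lower with the hormone and 2 higher, against 9.09% and 11.4% of all genes. Atf3, a stress-induced repressor, was the 1 called lower on day 35 in both experiments (0.41-fold in untreated and 0.18-fold in vehicle cells), and at day 3 it had 2.57, 2.10 and 2.77 CPM with the hormone against 93.8, 119 and 104 with vehicle (edgeR adjusted p = 1.46e-09).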

How the data were processed

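RNA from IDG-SW3 cells was depleted of ribosomal RNA and sequenced with directional kits that differed between the untreated and the hormone experiment, per the labels' protocols. The deposited values are RPKM per gene in the 18 untreated tables and were taken as raw counts per gene in the 12 hormone tables. The hormone values are whole numbers, although their names or labels speak of normalised values. To make the deposited counts and RPKM, the authors aligned reads with TopHat to mm9, per the submitters' processing notes. The counting tool is not given in the sources used here. For a symbol on more than 1 row, the row with the highest mean RPKM was kept in the untreated tables, and the counts were summed in the hormone tables. With the untreated rows summed instead, 19 members were called higher on day 35 and 1 lower. Each RPKM column was divided by a median-of-ratios factor over genes, and log2(scaled RPKM + 0.5) of genes with 1 scaled RPKM or more in 3 libraries was tested with limma 3.58.1 (trend, 18 libraries, 12 residual degrees of freedom). Of the low RPKM values, 51.5% to 73.8% per library fell on whole read steps (tolerance 0.1 of a read), too few to recover reads, and no count test was run on them; the depth of these libraries is not known. Counts were tested with edgeR 4.0.16 (TMM, quasi-likelihood, 12 libraries, 8 residual degrees of freedom) in R 4.3.3. All p-values were adjusted by Benjamini-Hochberg over all genes tested, with a threshold of 0.05. In the main fits a p-value weighs a difference between groups against the spread of libraries within groups, estimated together over all groups of an experiment. Both tests were also tried on simulated data with known changes. There the libraries varied independently, without the pairing by replicate number seen in the untreated cells, so that trial does not cover it.

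The members and lists were chosen with earlier results of these data known. Genes are named by a rule: in each role group the 2 members with the smallest adjusted p on day 35 in each experiment, hormone calls with a log2 change of 1 or more in size, all sensors and transcription factors, and the 2 called genes with the smallest adjusted p in each direction of each other list, of which 1 gene is not reported here; further members are given to account for all 41. Deviations of same-numbered untreated libraries from the group means correlated at over 0.1 in all 45 pairs of such libraries (0.109 to 0.593, median 0.269). The main fit had no term for this pairing, so its counts and p-values leave it out. The replicate block was run as an alternative. Alternatives were other scalings, pseudocounts, filters, DESeq2 1.42.0, the run or replicate as a term, subtraction of the stray read density, and leaving out each library. Promoter windows came from RefSeq (GRCm38.p6) and were matched by symbol.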

Additional observations from a re-analysis of the deposited data

Results flagged for a closer look

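In 3 members the response to 1,25(OH)2D3 differed between day 35 and day 3 by an interaction test in edgeR across 20055 genes. Of the 39 members tested, 2 were called higher and 1 lower, against 4.14% and 2.94% of all genes. These counts are close to the shares of all genes, so they are no trait of the members as a set. The difference for Dnajb9, the BiP cofactor, was 1.15 on the log2 scale (SE 0.27, adjusted p = 0.0177): the hormone-treated libraries stood at 114 to 155 CPM against 103 to 128 CPM with vehicle at day 35, and at 23.0 to 24.3 CPM against 38.6 to 64.2 CPM with vehicle at day 3. That of Spcs3, the signal peptidase subunit, was 0.85 (SE 0.20, adjusted p = 0.0175), with 375 to 421 CPM against 309 to 366 CPM at day 35 and 217 to 292 CPM against 356 to 401 CPM at day 3. That of Edem1, the degradation lectin, was -0.70 (SE 0.18, adjusted p = 0.0262), with 113 to 140.5 CPM against 298 to 299 CPM at day 35 and 121 to 135 CPM against 180 to 195 CPM at day 3. Over the alternatives the adjusted p ranged from 0.00125 to 0.0503 for Dnajb9, from 0.000262 to 0.0492 for Spcs3 and from 3.16e-06 to 0.136 for Edem1. The stray reads and the adipocyte markers of the day 3 hormone libraries move with these differences; with the stray density subtracted all 3 were called. Groups of 3 libraries were not searched for outliers.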

How the results depend on the processing

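With RPKM as listed, the day 35 changes of 6 called members turned to -0.003009 (Hyou1), -0.071 (Creld2), -0.087 (Pdia4), -0.076 (Edem1), -0.24 (Ern1) and -0.14 (Sec31a), and the counts of members higher and lower were 0 lower on day 7, 1 and 1 on day 14, 1 higher on day 21, 5 and 4 on day 28, and 4 and 8 on day 35. With RPKM rescaled to rows other than ribosomal RNA, 3 were higher on day 21, 5 lower on day 28 and 4 lower on day 35. With the run as a term, day 7 had 3 higher and 8 lower, 6 were lower on day 14 and 7 on day 21. A pseudocount of 0.1 left 1 lower on day 7, and no filter left 0 lower on day 35. With the replicate block, day 7 had 3 higher and 4 lower, 7 were lower on day 14, 10 higher on day 21 and 2 lower on day 35; no member called without the block was lost. Leaving out 1 library gave 0 to 2 lower on day 7, 0 to 2 higher and 2 to 5 lower on day 14, 2 to 6 higher and 2 to 4 lower on day 21, 1 to 3 lower on day 28, and 18 to 20 higher and 0 to 1 lower on day 35. In vehicle cells it gave 20 to 26 higher and 0 to 1 lower at day 35; in vehicle cells no other alternative moved either count beyond 1.5 times. For 1,25(OH)2D3 at day 35 it gave 6 to 10 lower, and no alternative moved that count beyond 1.5 times. At day 3 it gave 5 to 17 lower, the low count without hormone replicate 3 and the high without vehicle replicate 1; no filter gave 20 lower, the stray density subtracted 6 and only the 2 groups compared 7. For the difference between responses, leaving out 1 library gave 1 to 3 higher and 0 to 2 lower, DESeq2 5 lower, no filter 0, the stray density subtracted 4 and the replicate block 0. The cause of these moves was not tested. In the hormone libraries same-numbered samples did not pair (18 correlations, -0.394 to 0.514, 4 over 0.1), and the replicate block there lost Ero1l at day 3 (adjusted p = 0.0565), Manf at day 35 (0.0568) and Edem1 in the difference (0.0574). With members of 1 row alone, an alternative chosen after seeing the data, 21 were higher and 0 lower in vehicle cells, 11 lower with the hormone at day 3 and 7 at day 35. The untreated tables give no depth, so the counting error of members under 1 scaled RPKM is not known.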

Other observations

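The levels of the members in the 2 experiments can be set beside each other only across genes within day 3, because the kits differ. Across the 35 members with 1 row, Spearman's rho between CPM per kilobase in vehicle cells and scaled RPKM in untreated cells was 0.569; genes are not independent replicates. The 8 members under 1 scaled RPKM on untreated day 3 had 0.439 to 76.6 CPM per kilobase in vehicle cells, with a median of 19.6. Replicate 1 was the lowest library on every one of the 6 untreated days for 6 of the 36 members tested (16.7%), Hsp90b1, Calr, Canx, Serpinh1, Fkbp14 and Xbp1, against 1053 of 9629 genes (10.9%).

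Creb3l3, a liver-enriched relative of OASIS, had 3.50, 2.09 and 2.53 scaled RPKM on untreated day 35, against 0.0581, 0.290 and 0.161 on day 3 (limma adjusted p = 8.94e-07). In vehicle cells it had 5.70, 7.54 and 7.03 CPM at day 35, against 0.0244, 0 and 0 CPM at day 3, and no fold is given against libraries at 0. With 1,25(OH)2D3 at day 3 it had 0.705, 0.821 and 1.67 CPM, in the libraries that also carried the stray reads.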
